A study of Drosophila melanogaster with 12 samples.

Results

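Transfer RNA genes were followed in small RNAs that co-purified with Piwi from Drosophila ovarian somatic cells (OSC), a cultured line of ovarian follicle-type cells. The gene table held 295 rows whose FlyBase symbol begins with tRNA:, and 59 of them reached 1 RPM in at least 3 of the 12 libraries. RPM is a gene's reads as a share of the whole library, scaled to a common library size. These 59 genes carried 4574 of the 5332 reads on tRNA rows, or 85.8%. A further 159 tRNA rows had a read but missed the limit, and 77 had no read.

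The libraries compare mutant and wild-type versions of the piRNA factors Daed and Armi, with 3 libraries in each of 4 groups. In the first experiment, OSC treated with siRNA against Daed received a plasmid for Flag-tagged Daed deltaSAM or for Flag-tagged Daed WT. In the second, OSC treated with siRNA against Armi received a plasmid for Flag-tagged Armi KEE or for Flag-tagged Armi WT. KEE is the name of the mutant as labelled. The endogenous protein was knocked down in every group, and the wild-type groups are therefore rescued cells, not untreated ones. Cells were given plasmid and more siRNA 48 h after the first siRNA, cells were taken another 48 h later, Piwi was immunoprecipitated, and RNAs of 20 to 40 nt were cut from a gel. Nothing in the labels states whether replicates came from separate cultures, so the p-values measure the spread between these libraries.

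As background, a tRNA gene is read by RNA polymerase III, its 5′ leader is removed by RNase P and its 3′ trailer by RNase Z, and the mature RNA is charged by an aminoacyl-tRNA synthetase before it enters the ribosome. In flies, the genes for tRNA-Tyr with anticodon GTA and for tRNA-Leu with anticodon CAA hold an intron. Piwi-bound piRNAs in these cells are made mainly from transposon-rich precursors such as flam, by the endonuclease Zucchini on mitochondria, with the RNA helicase Armi bringing the precursors there and Daed acting with Gasz at the outer membrane.

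Library totals ran from 1396369 to 3995009 reads, so that 1 RPM stood for 1.40 to 4.00 reads. The gene table held 58.0% ± 0.598 of the library in deltaSAM cells and 50.2% ± 0.812 in Daed WT cells, and 79.5% ± 0.251 in KEE cells and 63.4% ± 1.32 in Armi WT cells (SD, n = 3 each). Because RPM are shares of a library, fewer tRNA pieces on Piwi and more of other RNA cannot be told apart. Reads on the 7 OSC markers tj, piwi, zfh1, fax, Fas3, ct and the piRNA cluster flam were present in every library. Medians were 10611 RPM for tj and 20751 RPM for flam, but 10.1 RPM for Fas3 and 13.2 RPM for ct. The lowest libraries of Fas3 and ct had 2.35 and 8.59 RPM. The 5 germline markers measured summed to between 13.3 and 34.2 RPM. Among them vas reached at most 4.97 RPM, and aub and osk had medians of 5.93 and 5.10 RPM. The 7 OSC markers together ranged from 36643 to 39203 RPM in deltaSAM cells and from 33361 to 37287 RPM in Daed WT cells, and from 22143 to 22484 RPM in KEE cells and from 34335 to 35879 RPM in Armi WT cells, and the part of this in the tRNA results was not tested. The knockdown was not checked by these reads, because a read on daed or armi is a Piwi-bound small RNA and not a transcript. Reads on daed averaged 30.3 ± 1.79 RPM in deltaSAM cells and 30.4 ± 2.46 RPM in Daed WT cells, and reads on armi averaged 1553 ± 26.8 RPM in KEE cells and 878 ± 30.3 RPM in Armi WT cells.

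The 59 genes covered 17 of the 22 amino acid classes in the table and 32 anticodons. No tRNA gene for Asn, Ile, Trp, initiator Met or elongator Met reached the limit, although these classes had 13, 32, 27, 10 and 27 reads. Ser had the most genes (8), followed by Ala, Gln, Glu and Leu (6 each). By summed level over the 12 libraries, Gln genes held 16.4% of the RPM of the 59 genes, Leu genes 15.1%, Ser genes 12.8% and Lys genes 12.8%. Most levels were low: 1 gene averaged at least 10 RPM, 9 averaged at least 5 RPM, and 33 averaged under 2 RPM. The rule could be met through some groups alone: 36 genes reached 1 RPM in libraries of all 4 groups, 12 in 3 groups and 11 in 2 groups. The last genes inside the limit were tRNA:Glu-TTC-1-6, tRNA:Tyr-GTA-1-5 and tRNA:Gly-TCC-2-2, with means of 0.43, 0.458 and 0.459 RPM and 3 libraries each at 1 RPM. The first genes outside were tRNA:Met-CAT-2-1, tRNA:Arg-ACG-1-2 and tRNA:His-GTG-1-5, with means of 0.846, 0.607 and 0.578 RPM and 2 libraries each.

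Per length, tRNA:Lys-TTT-2-1 stood first. This gene for a lysine tRNA lies at 6819894 to 6819966 of chromosome 3R (RefSeq annotation of Release 6, the build family named in the submitters' processing notes) and averaged 224 RPM per kb over the 12 libraries. tRNA:Gly-GCC-1-10, tRNA:Gln-CTG-2-2, tRNA:Gln-CTG-4-1 and tRNA:Ser-CGA-1-3 followed with mean levels of 104, 103, 100.4 and 99.4 RPM per kb, close to each other beside the spread of their libraries. tRNA:Ala-TGC-1-1 averaged 90.2 RPM per kb and tRNA:Ala-TGC-2-1 averaged 70.3 RPM per kb. The intron-bearing tRNA:Tyr-GTA-1-4, tRNA:Leu-CAA-2-2 and tRNA:Leu-CAA-1-1 averaged 54.3, 50.5 and 36.1 RPM per kb over spans that include the intron. The 10 genes of highest RPM held 47.6% of the RPM of the 59 genes.

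tRNA genes are repeated, and in the naming scheme genes that differ only in the last number share 1 mature sequence. By these names, of the 43 tRNA genes whose mature sequence has a single copy, 25 (58.1%) reached the limit, against 34 of the 252 genes (13.5%) with 2 or more copies. Within groups of copies the reads were uneven. tRNA:Lys-TTT-2-1 held 457 of the 458 reads of its 5 copies, tRNA:Gly-GCC-1-10 held 216 of the 240 reads of its 13 copies, and tRNA:Gln-CTG-2-2 held 208 of the 252 reads of its 5 copies. In each of these groups 1 copy held most of the reads. tRNA:Ser-CGA-1-3 held 79.6% of the reads of 4 copies and tRNA:Tyr-GTA-1-4 held 72.2% of the reads of 9 copies. The 3 copies of Leu-CAA-2 were closer to even, with 45.0% on tRNA:Leu-CAA-2-2. How reads that match several copies were counted is not given in the sources used here. Such reads may have been split between copies or dropped, so the split between copies and the shares by copy number are uncertain. Results are also given below with the copies of each anticodon summed.

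**Figure D1:**
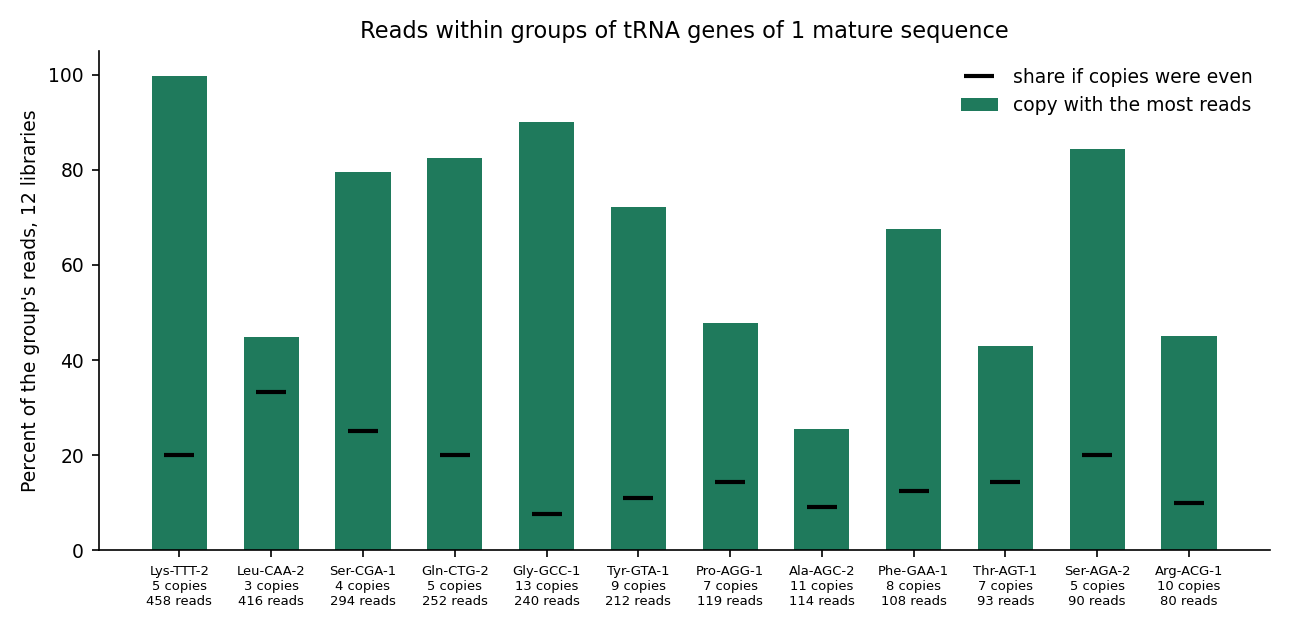
Share of reads held by the copy with the most reads, in the 12 groups with the most reads among tRNA genes that share a mature sequence by their names, over 12 libraries (bars, percent; black marks, the share that an even split would give). The bar of Lys-TTT-2 reaches 99.8%, while that of Leu-CAA-2 stands at 45.0% beside an even share of 33.3%.

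The first comparison asks what changes among Piwi-bound tRNA pieces when the rescuing Daed lacks its SAM domain. Together the 59 genes had 178, 212 and 239 RPM in deltaSAM cells, against 149, 138 and 150 RPM in Daed WT cells. Every deltaSAM library stood above every Daed WT library, and the mean was 1.44 times as high (209.7 ± 30.6 RPM in deltaSAM cells and 145 ± 6.54 RPM in Daed WT cells, SD, n = 3 each). As a share of the reads in the gene table, the same genes held 0.0362% ± 0.00559 in deltaSAM cells and 0.0290% ± 0.00156 in Daed WT cells, 1.25 times as high and again without overlap. No test was run on sums over the genes.

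**Figure D2:**
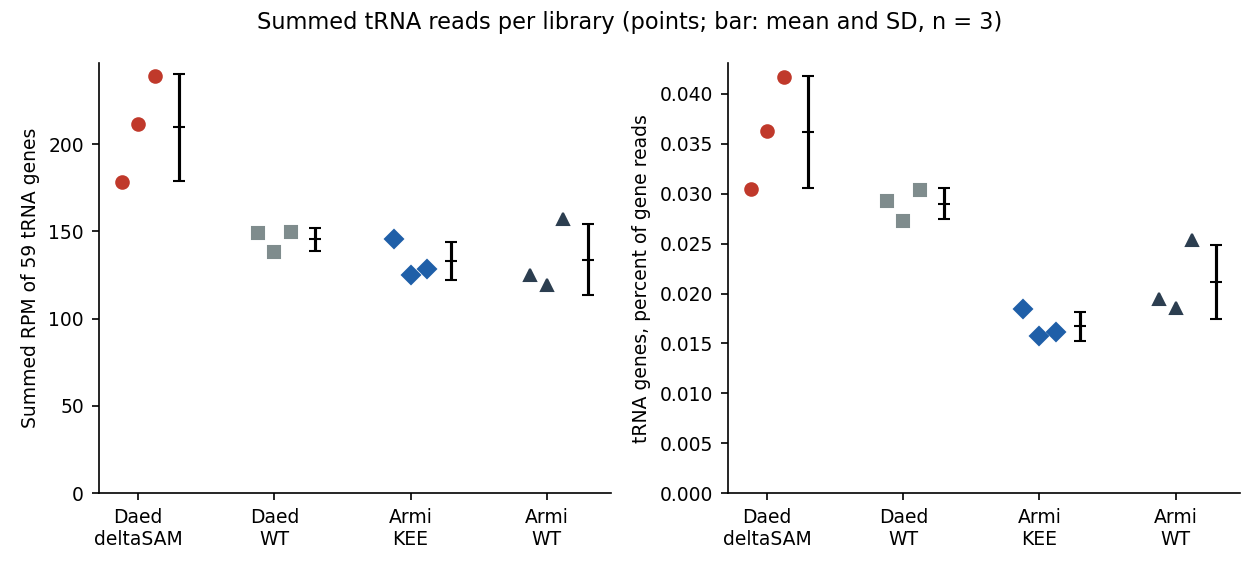
Summed level of the 59 tRNA genes in each library, in RPM (left) and as a percent of the reads in the gene table (right), for deltaSAM, Daed WT, KEE and Armi WT cells (points; bars, mean and SD, n = 3). The 3 deltaSAM libraries stand above the 3 Daed WT libraries in both panels, and the 3 KEE libraries lie below the 3 Armi WT libraries in the right panel and overlap with them in the left one.

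The difference was uneven over the amino acids. The 8 Ser genes summed to 39.4, 36.5 and 44.2 RPM in deltaSAM cells, against 9.69, 10.5 and 13.6 RPM in Daed WT cells, a ratio of means of 3.55. The 2 Tyr genes summed to 8.23, 12.0 and 13.3 RPM in deltaSAM cells, against 1.53, 1.66 and 1.43 RPM in Daed WT cells, a ratio of 7.25. Gly (2.38 times), Gln (1.70 times), Ala (1.55 times) and Asp (2.00 times) sums were also above those of Daed WT cells in every library, and the 3 Arg genes were below in every library, with 2.80 ± 1.63 RPM in deltaSAM cells and 6.89 ± 1.16 RPM in Daed WT cells. Without overlap were thus 7 of 17 amino acids, beside 19.1% of all 8246 genes tested that lay wholly above and 21.5% that lay wholly below in this comparison. The sums for Leu, Lys, Glu, His, Pro, Cys, Phe, Thr, Val and selenocysteine (SeC) overlapped. In the Ala, Ser, Tyr and Asp sums, tRNA:Ala-CGC-1-1, tRNA:Ser-GCT-2-4, tRNA:Tyr-GTA-1-5 and tRNA:Asp-GTC-1-2 met the 1 RPM limit only with their deltaSAM libraries. For tRNA:Asp-GTC-1-2 the means were 0.271 RPM in KEE cells and 0.268 RPM in Armi WT cells. The limit itself favoured deltaSAM cells for these genes. Not every uncalled gene was checked for this. Neither Asp gene was called, with means of 1.28 and 1.52 RPM in deltaSAM cells and 0.510 and 0.886 RPM in Daed WT cells. With all rows of Asp-GTC summed, the log2 difference was 0.63 (adjusted p = 0.230 by limma).

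**Figure D3:**
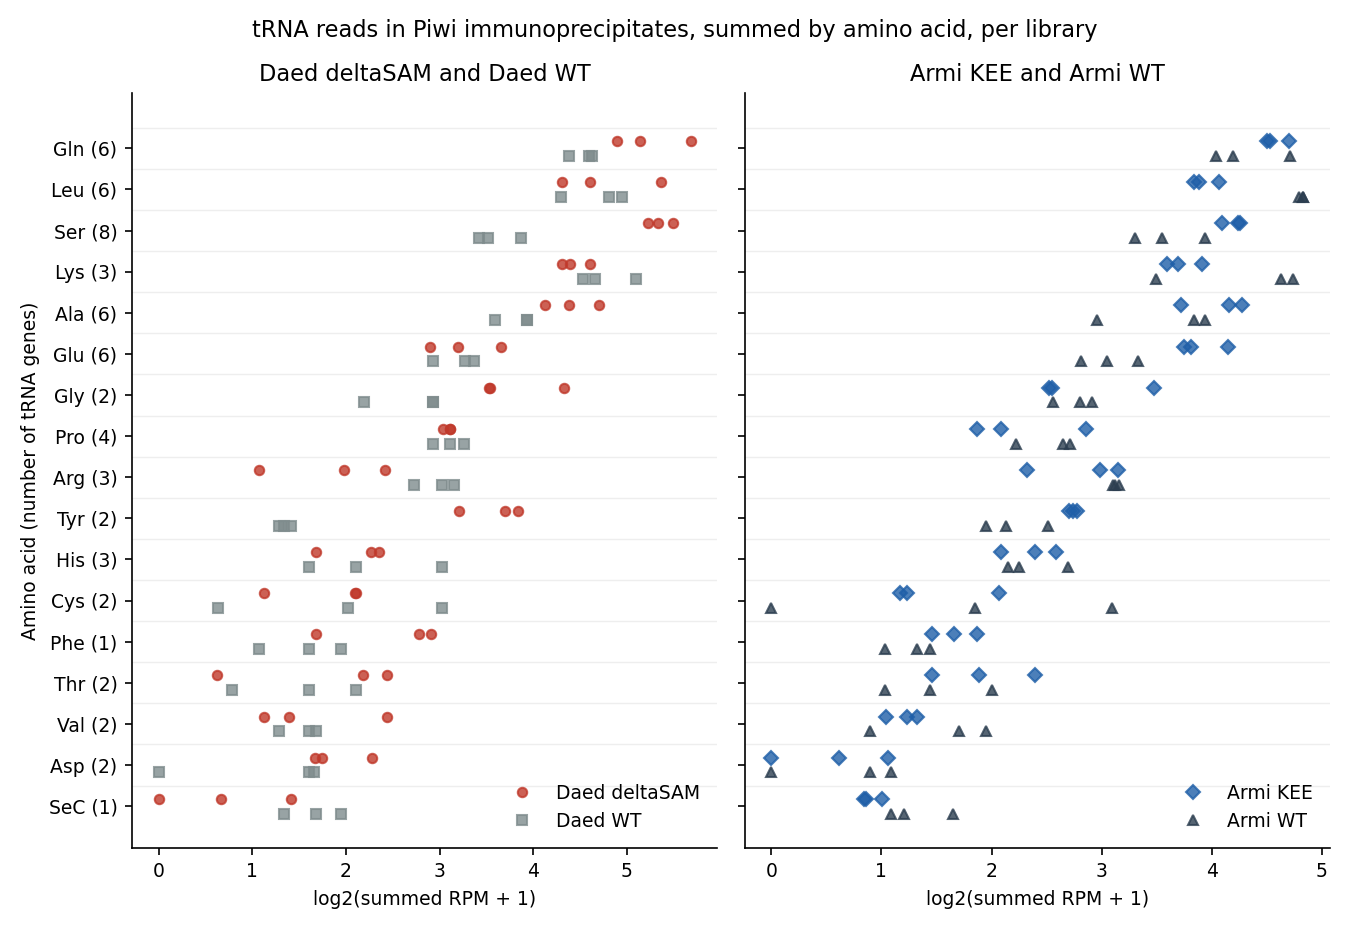
Summed levels of tRNA genes by amino acid in each library, on a log2 scale of RPM + 1, for deltaSAM and Daed WT cells (left) and for KEE and Armi WT cells (right); each point is a library. Ser and Tyr sums of deltaSAM cells stand apart from those of Daed WT cells, and Leu sums of KEE cells stand below those of Armi WT cells.

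Gene by gene, limma on log2(RPM + 1) over the 8246 genes with at least 1 RPM in 3 libraries, with Benjamini-Hochberg adjustment at 0.05, called 13 tRNA genes higher and 4 lower in deltaSAM cells. Among all genes tested, 17.3% were called higher and 18.9% lower. Either way, 17 of 59 were called beside 36.2% of all genes, and 23 had an unadjusted p under 0.05 beside 44.5%. The libraries of 13 tRNA genes were wholly above and those of 1 wholly below Daed WT. The median log2 difference of the 59 genes was 0.18, and that of all genes was -0.10. Of the 13 genes called higher, 6 were Ser genes, 2 Gln, 2 Ala, and 1 each Tyr, Gly and Leu. The 4 called lower were tRNA:Leu-CAA-2-2, tRNA:Leu-CAA-2-1, tRNA:Arg-TCG-1-1 and tRNA:SeC-TCA-1-1. The second and the last of these, together with tRNA:Ser-AGA-2-3 and tRNA:Gln-TTG-2-1 among the higher ones, overlapped between the groups and are named after their values were seen. The call was lost in 16 of 23 alternative settings for tRNA:SeC-TCA-1-1, in 11 of 23 for tRNA:Leu-CAA-2-1 and in 10 of 23 for tRNA:Gln-TTG-2-1.

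tRNA:Tyr-GTA-1-4, a tyrosine tRNA gene at 8642333 to 8642425 of chromosome 3R, had 7.64, 10.3 and 12.1 RPM in deltaSAM cells, against 1.02, 1.66 and 1.43 RPM in Daed WT cells. The lowest deltaSAM library was several times the highest Daed WT library. The log2 difference was 2.21 (SE 0.30, adjusted p = 8.000e-07 by limma), the largest among the tRNA genes in this comparison. It rested on 54 reads in the deltaSAM libraries and 7 in the Daed WT libraries.

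Of the 8 serine genes 6 rose, and all 8 had a log2 difference above 0. tRNA:Ser-CGA-1-3, on chromosome X at 14103363 to 14103444 and reading the UCG codon, had 17.0, 19.1 and 13.3 RPM in deltaSAM cells, against 2.55, 4.97 and 4.30 RPM in Daed WT cells. Its log2 difference was 1.84 (SE 0.29, adjusted p = 7.577e-06 by limma). Its copy tRNA:Ser-CGA-1-1 had 4.11, 4.90 and 3.87 RPM in deltaSAM cells, against 0, 0.552 and 1.43 RPM in Daed WT cells, with a log2 difference of 1.76 (SE 0.39, adjusted p = 7.167e-04 by limma). Both copies were apart from Daed WT in all libraries. tRNA:Ser-GCT-2-3, which reads AGC and AGU codons, had 4.70, 3.81 and 3.87 RPM in deltaSAM cells, against 1.53, 0.552 and 0.716 RPM in Daed WT cells (log2 difference 1.44, SE 0.36, adjusted p = 0.00221 by limma). tRNA:Ser-GCT-2-4 was lower in level, with 1.32 ± 0.665 RPM in deltaSAM cells and 0.170 ± 0.294 RPM in Daed WT cells (SD, n = 3 each; adjusted p = 0.0471 by limma), and its call was lost in 13 of 22 alternative settings. tRNA:Ser-AGA-2-3 and tRNA:Ser-TGA-1-1 passed the threshold with log2 differences of 1.06 and 0.95, though their libraries overlapped, and lost the call in 9 and 15 of 23 alternative settings. The remaining Ser genes, tRNA:Ser-GCT-1-1 and tRNA:Ser-TGA-2-1, had log2 differences of 0.75 and 0.23 and did not pass.

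Among the glutamine and glycine genes, tRNA:Gln-CTG-2-2, at 2009155 to 2009226 of chromosome 2L, had 14.7, 16.9 and 14.9 RPM in deltaSAM cells, against 4.59, 6.07 and 1.43 RPM in Daed WT cells. Its log2 difference was 1.85 (SE 0.32, adjusted p = 3.264e-05 by limma). tRNA:Gly-GCC-1-10 had 9.40, 18.5 and 10.5 RPM in deltaSAM cells, against 6.63, 4.97 and 3.58 RPM in Daed WT cells (log2 difference 1.16, SE 0.30, adjusted p = 0.00324 by limma). The groups did not overlap for either gene. tRNA:Gln-CTG-4-1, with the same anticodon but another sequence, had 2.94, 4.90 and 18.8 RPM in deltaSAM cells, against 5.10, 9.38 and 7.16 RPM in Daed WT cells, and was not called. Replicate 3 of the deltaSAM group lay above the Daed WT range and the others below it.

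tRNA:Leu-TAA-4-1 had 2.94, 4.90 and 25.4 RPM in deltaSAM cells, against 1.02, 1.10 and 1.43 RPM in Daed WT cells. Its log2 difference of 1.96 (SE 0.47, adjusted p = 0.00152 by limma) leaned on replicate 3 of the deltaSAM group, and without that library it was 1.15 (adjusted p = 0.0269 by limma). tRNA:Ala-TGC-1-1 had 5.88, 9.80 and 12.7 RPM in deltaSAM cells, against 5.10, 4.97 and 3.58 RPM in Daed WT cells (log2 difference 0.87, SE 0.32, adjusted p = 0.0321 by limma). tRNA:Ala-CGC-1-1 had 2.35, 4.36 and 0.552 RPM in deltaSAM cells, against 0.51, 0 and 0 RPM in Daed WT cells, which was 13 reads and 1 read (log2 difference 1.40, adjusted p = 0.0173 by limma). These 3 genes were above Daed WT in every deltaSAM library, by little in the last case. The call of tRNA:Ala-TGC-1-1 was lost in 8 of 23 alternative settings, among them the fits without replicate 2 or 3 of the deltaSAM group or replicate 3 of the Daed WT group, with log2 differences of 0.82, 0.65 and 0.74. tRNA:Ala-CGC-1-1, like tRNA:Ser-GCT-2-4, reached 1 RPM in 2 libraries outside the deltaSAM group and so met the limit only with its deltaSAM libraries. Its call was lost in 4 of 23, without replicate 1 or 2 of the deltaSAM group (1.33 and 0.99) or replicate 2 or 3 of the Daed WT group (1.30 each).

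The genes that fell were fewer. tRNA:Arg-TCG-1-1 had 1.18, 2.18 and 1.10 RPM in deltaSAM cells, against 3.57, 3.31 and 3.58 RPM in Daed WT cells (log2 difference -0.88, SE 0.33, adjusted p = 0.0373 by limma). The groups did not overlap, but the call was lost in 14 of 23 alternative settings, among them the fits without any 1 of the Daed WT libraries. tRNA:Leu-CAA-2-2 had 3.53, 4.36 and 1.66 RPM in deltaSAM cells, against 10.7, 13.2 and 3.58 RPM in Daed WT cells (log2 difference -1.19, SE 0.35, adjusted p = 0.00844 by limma), and the lowest Daed WT library lay inside the range of deltaSAM cells. That call was lost without replicate 3 of the deltaSAM group (-0.89) or without replicate 1 or 2 of the Daed WT group (-1.01 and -0.87). The most abundant gene, tRNA:Lys-TTT-2-1, had 18.1 ± 3.35 RPM in deltaSAM cells and 23.6 ± 4.13 RPM in Daed WT cells (SD, n = 3 each), which overlapped and were not called.

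There were 9 pairs of neighbouring tRNA genes within 1000 bp, made of 16 genes, and neighbours did not always move together. The pairs named here are examples. tRNA:Ser-CGA-1-3, which rose, and tRNA:Arg-TCG-1-1, which fell, lie 274 bp apart on chromosome X. The call of tRNA:Arg-TCG-1-1 was lost in 14 of 23 alternative settings. tRNA:Ala-TGC-1-1 and tRNA:Ala-TGC-2-1 lie 369 bp apart on chromosome 2R and had log2 differences of 0.87 and -0.05 with deltaSAM, of which the first was called. The 3 Ser-GCT genes that lie 189 and 299 bp apart in a row on chromosome 3R all had log2 differences above 0, of 1.44, 0.97 and 0.75, and the first 2 were called.

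Summing all rows of an anticodon before the fit removes the split between copies, but not a loss of reads that match several copies. After summing, 38 anticodons could be tested, and 11 were higher and 2 lower in deltaSAM cells. Shares of all genes in this summed fit were not recorded, while the fit of single genes called 17.3% of all genes higher and 18.9% lower. Ser-CGA (log2 difference 2.01, SE 0.28, adjusted p = 1.250e-06 by limma), Tyr-GTA (2.14, SE 0.30, adjusted p = 1.288e-06) and Leu-TAA (2.03, SE 0.44, adjusted p = 5.181e-04) led the higher ones. Leu-CAA (-0.75, SE 0.22, adjusted p = 0.00722 by limma) and SeC-TCA were the lower ones. The count of single genes called fell to 9 when only the 6 libraries of this experiment were fitted, to 10 with DESeq2 on recovered reads and to 11 without replicate 1 of the deltaSAM group. All genes called higher and lower were then 13.9% and 13.6%, 15.8% and 10.3%, and 15.7% and 17.3%. Centring each library on its median gene gave 19 higher and 1 lower, beside 24.7% and 11.2% of all genes. Scaling to the total of the gene table gave 9 higher and 5 lower, beside 11.6% and 27.8% of all genes. With edgeR on deposited totals, the recovered reads gave 12 higher and 1 lower, beside 15.7% and 15.5% of all genes. DESeq2 gave 9 higher and 1 lower, beside 15.8% and 10.3%. Tyr-GTA-1-4, Ser-CGA-1-3, Ser-CGA-1-1, Gln-CTG-2-2, Leu-TAA-4-1, Ser-GCT-2-3 and Gly-GCC-1-10 were called higher in every setting that tested them.

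**Figure D4:**
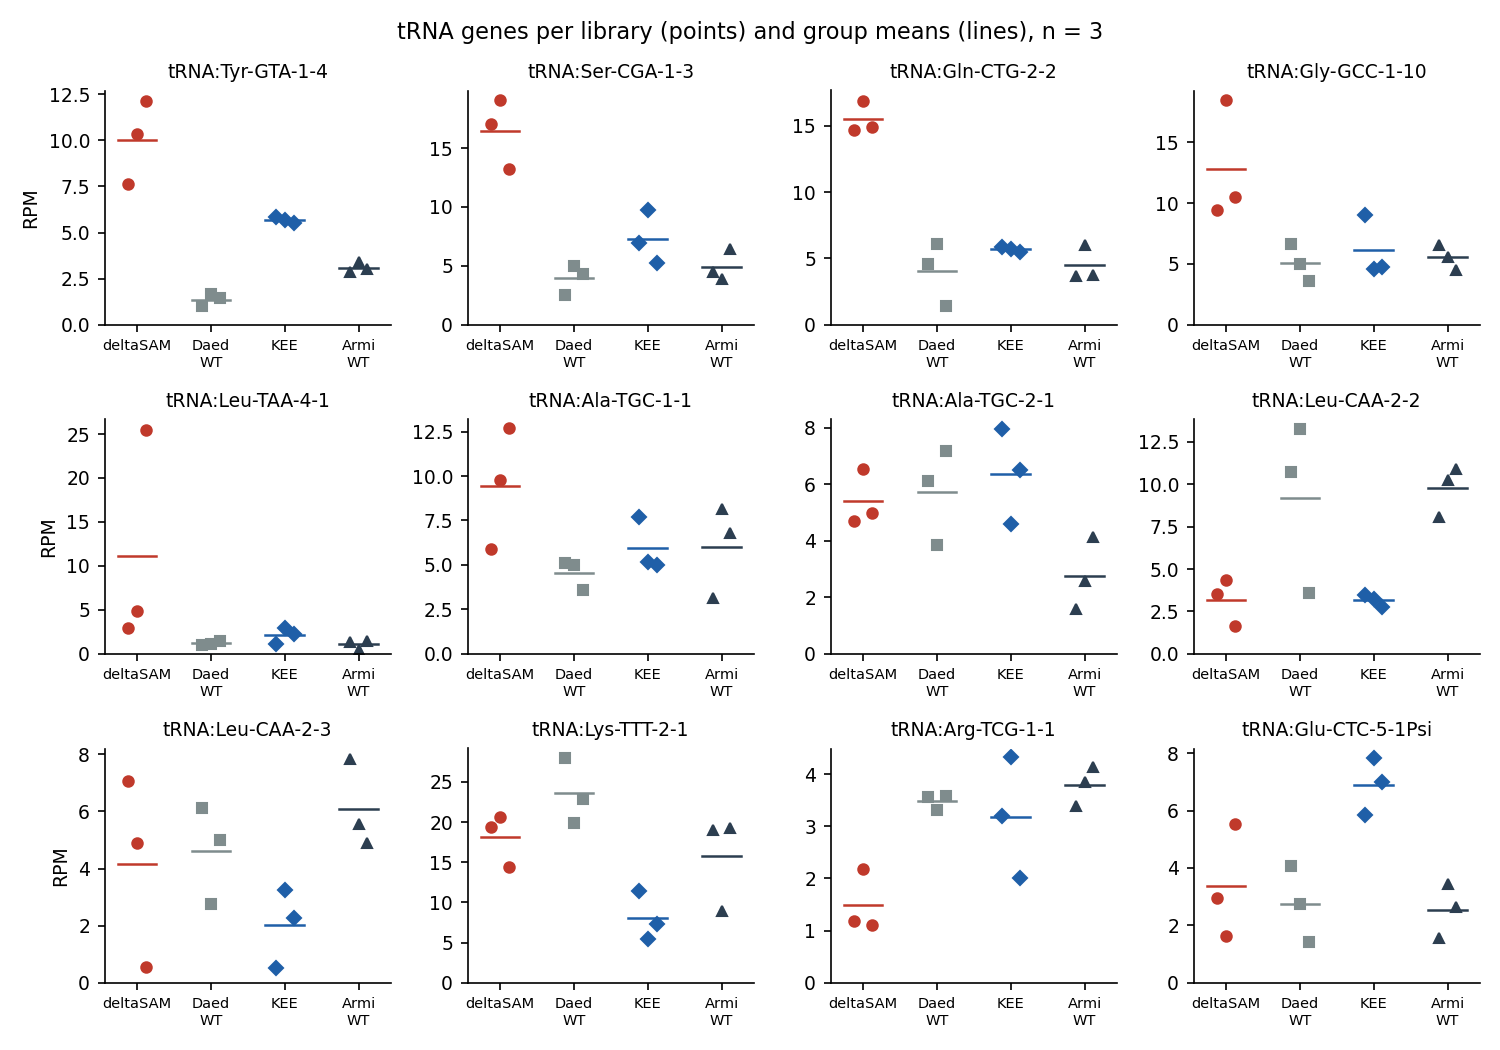
Levels in RPM of 12 tRNA genes in each library (points) with group means (lines), n = 3, for deltaSAM, Daed WT, KEE and Armi WT cells. tRNA:Tyr-GTA-1-4 reaches 12.1 RPM in deltaSAM cells and 1.66 RPM in Daed WT cells, and tRNA:Leu-CAA-2-2 reaches 3.45 RPM in KEE cells and 10.9 RPM in Armi WT cells.

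The second comparison asks the same of the Armi KEE mutant. The 59 genes together had 146, 125 and 128 RPM in KEE cells, against 125, 119 and 157 RPM in Armi WT cells, so that the groups overlapped. As a share of the reads in the gene table they held 0.0167% ± 0.00142 in KEE cells and 0.0211% ± 0.00370 in Armi WT cells, 0.791 times as much and without overlap. In RPM the ratio of means was 0.995, with a log2 ratio from -0.08 to 0.12 when a library was left out, so no direction is given. Gene reads held a larger part of the KEE libraries than of the Armi WT libraries.

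By amino acid, 6 of 17 sums did not overlap, 4 above and 2 below, beside 41.6% of all genes wholly above and 16.5% wholly below. The Leu genes summed to 13.3, 15.7 and 13.8 RPM in KEE cells, against 27.4, 27.4 and 26.7 RPM in Armi WT cells, a ratio of 0.524. The Glu genes summed to 16.7, 12.4 and 13.0 RPM in KEE cells, against 6.01, 7.28 and 9.04 RPM in Armi WT cells, a ratio of 1.89. Ser genes (17.3 ± 1.12 RPM in KEE cells and 11.3 ± 2.76 RPM in Armi WT cells), Tyr genes (5.68 ± 0.167 RPM in KEE cells and 3.66 ± 0.947 RPM in Armi WT cells) and the Phe gene were also wholly above, and the SeC gene was wholly below. With libraries scaled to the gene-table total, 1 amino acid was wholly above and 3 wholly below.

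Gene by gene, limma called 3 tRNA genes higher and 3 lower in KEE cells, beside 33.0% and 11.7% of all genes tested. Either way, 6 of 59 were called beside 44.7% of all genes, and 7 had an unadjusted p under 0.05 beside 50.4%. The libraries of 6 tRNA genes were wholly above and those of 4 wholly below Armi WT. The median log2 difference was 0.04 for the 59 genes and 0.30 for all genes. That general shift depended on the scaling, since the median over all genes was 0.05 with libraries scaled to the gene-table total and -0.05 with centred libraries, and the tRNA median was then -0.15 and -0.31.

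Lower reads were found on the leucine CAA genes. tRNA:Leu-CAA-2-2 had 3.45, 3.25 and 2.75 RPM in KEE cells, against 8.10, 10.3 and 10.9 RPM in Armi WT cells, and no library overlapped. Its log2 difference was -1.37 (SE 0.35, adjusted p = 0.00185 by limma), and it was called in 24 of 24 alternative settings. tRNA:Leu-CAA-2-3 had 0.531, 3.25 and 2.25 RPM in KEE cells, against 7.84, 5.57 and 4.90 RPM in Armi WT cells (log2 difference -1.34, SE 0.45, adjusted p = 0.0166 by limma). tRNA:Leu-CAA-2-1, the remaining copy of this sequence, was below Armi WT in every library without passing the test (log2 difference -0.69, adjusted p = 0.145 by limma). tRNA:Leu-CAA-1-1, of another sequence, had 4.03 ± 0.505 RPM in KEE cells and 5.64 ± 1.57 RPM in Armi WT cells, which overlapped. Summed by anticodon, the members for Leu-CAA had 11.4, 12.2 and 11.0 RPM in KEE cells, against 25.9, 26.5 and 25.2 RPM in Armi WT cells, and the fit over all rows of this anticodon gave a log2 difference of -1.10 (SE 0.22, adjusted p = 1.012e-04 by limma).

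tRNA:Lys-TTT-2-1 had 11.4, 5.41 and 7.26 RPM in KEE cells, against 19.1, 8.99 and 19.2 RPM in Armi WT cells. It was called lower (log2 difference -0.87, SE 0.26, adjusted p = 0.00603 by limma), although replicate 2 of the Armi WT group lay inside the range of KEE cells. The genes called higher were tRNA:Glu-CTC-5-1Psi, whose symbol marks it as a pseudogene, tRNA:Ala-TGC-2-1 and tRNA:Ser-TGA-1-1. tRNA:Glu-CTC-5-1Psi had 5.84, 7.84 and 7.01 RPM in KEE cells, against 1.57, 3.43 and 2.64 RPM in Armi WT cells (log2 difference 1.18, SE 0.36, adjusted p = 0.00815 by limma). tRNA:Ala-TGC-2-1 had 7.97, 4.60 and 6.51 RPM in KEE cells, against 1.57, 2.57 and 4.14 RPM in Armi WT cells (log2 difference 1.00, SE 0.32, adjusted p = 0.0113 by limma). tRNA:Ser-TGA-1-1 had 3.72, 2.98 and 3.50 RPM in KEE cells, against 1.31, 0.856 and 0.753 RPM in Armi WT cells (log2 difference 1.16, SE 0.37, adjusted p = 0.0114 by limma). All 3 were wholly above Armi WT, and all 3 calls were lost with libraries scaled to the gene-table total, centred, or normalized by DESeq2, which left 0 tRNA genes called higher. All genes called higher were then 21.0%, 20.2% and 18.6%. With edgeR on recovered reads, 4 tRNA genes were called higher with deposited totals and 3 with TMM factors, beside 37.1% and 22.6% of all genes. Without replicate 1 of the Armi WT group, 2 of the 6 genes stayed past the threshold, tRNA:Leu-CAA-2-2 and tRNA:Ser-TGA-1-1, while the log2 differences of tRNA:Leu-CAA-2-3, tRNA:Lys-TTT-2-1, tRNA:Ala-TGC-2-1 and tRNA:Glu-CTC-5-1Psi were -1.17, -0.71, 0.75 and 0.97. Calls were also lost without KEE replicate 1 for tRNA:Leu-CAA-2-3 (-0.91) and tRNA:Ala-TGC-2-1 (0.84), and for tRNA:Lys-TTT-2-1 without KEE replicate 2 (-0.65) or Armi WT replicate 3 (-0.70).

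Both mutants can be set side by side, since the experiments share no library. tRNA:Leu-CAA-2-2 was called lower and tRNA:Ser-TGA-1-1 higher in both, 15 genes were called with deltaSAM and not with KEE, 4 with KEE and not with deltaSAM, and 38 in neither. Among all genes tested, 21.6% were called in both, 14.6% with deltaSAM and not with KEE, 23.1% with KEE and not with deltaSAM, and 40.7% in neither. A call in one experiment alone does not show a difference, so the difference of the effects was tested in the same fit. The KEE effect was lower than the deltaSAM effect for 7 tRNA genes and higher for 1, beside 11.0% and 29.4% of all genes tested. With libraries scaled to the gene-table total it was lower for 7 and higher for 0, beside 12.1% and 25.0% of all genes. With centred libraries it was lower for 13 (22.0% of the 59) and higher for 0, beside 20.3% and 12.9% of all genes, so that the share lower was near that of all genes. In the deposited scaling, 5 tRNA genes were called without deltaSAM replicate 2, KEE replicate 3 or Armi WT replicate 2. All genes called higher and lower were then 28.4% and 10.5%, 26.8% and 10.1%, and 26.8% and 10.2%.

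The 7 genes were tRNA:Tyr-GTA-1-4, tRNA:Tyr-GTA-1-5, tRNA:Ser-CGA-1-1, tRNA:Ser-CGA-1-3, tRNA:Ser-GCT-2-3, tRNA:Gln-CTG-2-2 and tRNA:Gly-GCC-1-10. tRNA:Tyr-GTA-1-5 reached 1 RPM in 2 deltaSAM libraries and 1 Armi WT library alone, which are groups subtracted in this difference, so the filter itself favoured a lower value and its call is given as a description. For tRNA:Ser-CGA-1-1 the KEE effect minus the deltaSAM effect was -1.95 (SE 0.55, adjusted p = 0.0055 by limma), and for tRNA:Tyr-GTA-1-4 it was -1.50 (SE 0.42, adjusted p = 0.00458 by limma). tRNA:Tyr-GTA-1-4 still had 5.84, 5.68 and 5.51 RPM in KEE cells, against 2.87, 3.43 and 3.01 RPM in Armi WT cells, without overlap but short of the threshold (adjusted p = 0.0538 by limma). tRNA:Gln-CTG-3-1 differed the other way, with 3.32 ± 0.819 RPM in KEE cells and 2.17 ± 1.09 RPM in Armi WT cells, and 2.45 ± 1.71 RPM in deltaSAM cells and 5.12 ± 1.62 RPM in Daed WT cells (SD, n = 3 each). For the 4 Leu-CAA genes the difference of effects did not pass the threshold (adjusted p from 0.244 to 0.861 by limma).

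**Figure D5:**
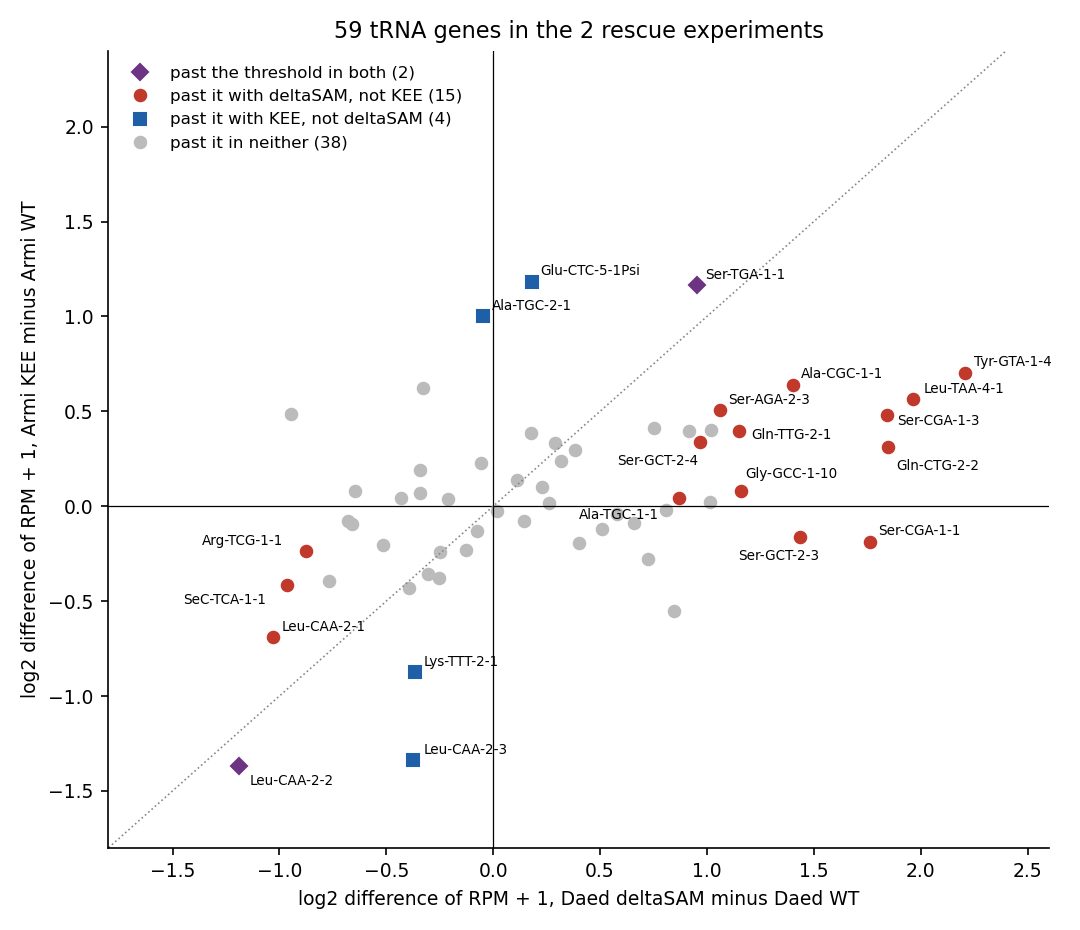
Log2 differences of the 59 tRNA genes, deltaSAM minus Daed WT across and KEE minus Armi WT upwards; colours mark genes past an adjusted p of 0.05 by limma, and the dotted line marks equal differences. Tyr, Ser and Gln genes lie far to the right near the horizontal axis, and tRNA:Leu-CAA-2-2 lies at the lower left at -1.19 and -1.37.

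The wild-type rescues of the experiments were also compared. Armi WT cells had 134 ± 20.4 RPM on the 59 genes and Daed WT cells 145 ± 6.54 RPM (SD, n = 3 each), with overlap. As a share of gene reads they held 0.0211% ± 0.00370 in Armi WT cells and 0.0290% ± 0.00156 in Daed WT cells, 0.729 times as much, and every Armi WT library was below every Daed WT library. By amino acid, the Tyr genes summed to 3.66 ± 0.947 RPM in Armi WT cells and 1.54 ± 0.112 RPM in Daed WT cells without overlap. The Pro genes summed to 4.83 ± 1.03 RPM in Armi WT cells and 7.62 ± 0.986 RPM in Daed WT cells, also without overlap. Among all genes tested, 23.6% lay wholly above and 12.9% wholly below in this comparison. Of the 59 tRNA genes, 2 lay wholly above and 3 wholly below. limma called 1 tRNA gene higher and 1 lower in Armi WT cells, beside 18.9% and 6.35% of all genes. These were tRNA:Tyr-GTA-1-4, with 3.10 ± 0.287 RPM in Armi WT cells and 1.37 ± 0.323 RPM in Daed WT cells (log2 difference 0.80, SE 0.30, adjusted p = 0.0462 by limma), and tRNA:Ala-TGC-2-1, with 2.76 ± 1.30 RPM in Armi WT cells and 5.71 ± 1.69 RPM in Daed WT cells (log2 difference -0.86, SE 0.32, adjusted p = 0.0468). The calls were lost in 16 and 14 of 22 alternative settings. Knockdown target, construct and library depth all differ between these groups and cannot be told apart.

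Of the 59 genes, 23 lie inside the span of another gene, and without a stated strand setting their reads and those of the host cannot be told apart. A tested host was at hand for 21 of them. They lie in 17 hosts, since some hosts hold more than 1 tRNA gene. With KEE, 10 of the 17 hosts were called higher and 0 lower, beside 33.0% and 11.7% of all genes, with a median host log2 difference of 0.54. By limma 0 of the 21 tRNA genes were called, beside 44.7% of all genes, and 0 had an unadjusted p under 0.05, beside 50.4%. The median log2 difference of the 21 tRNA genes was -0.02. For tRNA:Gln-CTG-1-1 in mrj, which encodes a DnaJ-type chaperone, the host averaged 35.5 RPM in KEE cells and 8.34 RPM in Armi WT cells, and the tRNA gene 3.82 RPM in KEE cells and 3.83 RPM in Armi WT cells. This pair was named after its values were seen. With deltaSAM, 4 of the 21 tRNA genes were called, beside 36.2% of all genes, and 8 had an unadjusted p under 0.05, beside 44.5%. In none of the 4 was the host called. Of the 17 hosts, 3 were called higher and 1 lower, beside 17.3% and 18.9% of all genes. The tRNA:Leu-TAA-4-1 host jar, the myosin VI gene, had a log2 difference of 0.25 (adjusted p = 0.606 by limma).

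Genes that make and use tRNA were read as Piwi-bound small RNAs as well, mostly at low level. Of 108 listed symbols 85 were tested, and 7 were called higher and 16 lower with deltaSAM (4 and 27 with libraries scaled to the gene-table total, 8 and 11 with centred libraries). All genes tested gave 17.3% and 18.9%, so that the share of the 85 called lower was near that of all genes. With the gene-table total all genes gave 11.6% and 27.8%, and with centred libraries 24.7% and 11.2%. None of the 16 mitochondrial aminoacyl-tRNA synthetases, which charge tRNAs inside the organelle, was called higher with deltaSAM and 7 were called lower (9 with the gene-table total and 6 with centred libraries), with a list median of -0.67 beside -0.10 for all genes. MetRS-m averaged 2.23 ± 0.480 RPM in deltaSAM cells and 9.13 ± 0.902 RPM in Daed WT cells (log2 difference -1.66, SE 0.29). SerRS-m averaged 21.6 ± 3.01 RPM in deltaSAM cells and 39.1 ± 2.97 RPM in Daed WT cells (log2 difference -0.83, SE 0.15), and AlaRS-m and IleRS-m had log2 differences of -1.52 and -1.26. Of the 23 cytosolic synthetases and their scaffold proteins 2 were called higher and 6 lower, beside 17.3% and 18.9% of all genes, against 2 and 13 with the gene-table total and 3 and 3 with centred libraries. AspRS, the aspartyl enzyme, rose to 293 ± 56.9 RPM in deltaSAM cells, against 144 ± 18.4 RPM in Daed WT cells, and ArgRS to 13.3 ± 0.795 RPM in deltaSAM cells, against 6.81 ± 3.07 RPM in Daed WT cells, while beta-PheRS, MetRS, alpha-PheRS and IleRS fell. The IleRS call was lost with centred libraries and that of alpha-PheRS without replicate 2 of the deltaSAM group. La, which binds the 3′ end of new polymerase III transcripts, averaged 35.3 ± 3.62 RPM in deltaSAM cells and 18.8 ± 0.495 RPM in Daed WT cells. Maf1, a repressor of polymerase III, averaged 155 ± 6.54 RPM in deltaSAM cells and 119.9 ± 5.20 RPM in Daed WT cells, a call that was lost with libraries scaled to the gene-table total. Elp5, a subunit of the Elongator complex that modifies tRNA wobble bases, averaged 685 ± 40.4 RPM in deltaSAM cells and 366 ± 26.9 RPM in Daed WT cells.

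With KEE, 23 of the 85 were called higher and 7 lower, beside 33.0% and 11.7% of all genes. The split was 9 and 14 with libraries scaled to the gene-table total, beside 21.0% and 17.1% of all genes. It was 8 and 15 with centred libraries, beside 20.2% and 20.4%, and 12 and 20 with edgeR and TMM factors, beside 22.6% and 24.0%. No direction is therefore given for the lists as a whole. In the deposited scaling the 23 cytosolic synthetases and scaffold proteins had 8 called higher, near the 33.0% of all genes, against 4 higher and 4 lower with the gene-table total and 3 higher and 4 lower with centred libraries. Among the 8 were LysRS (27.6 ± 2.24 RPM in KEE cells and 12.3 ± 4.55 RPM in Armi WT cells) and ArgRS (27.1 ± 4.17 RPM in KEE cells and 10.8 ± 1.92 RPM in Armi WT cells). The 1 called lower was GluProRS, whose call was lost without replicate 1 of the Armi WT group. The mitochondrial list had 4 of 16 called each way (25.0%), beside 33.0% higher and 11.7% lower among all genes. With the gene-table total 1 was higher and 5 lower, and with centred libraries 1 and 6. AspRS-m averaged 88.2 ± 1.63 RPM in KEE cells and 50.5 ± 4.84 RPM in Armi WT cells, and SerRS-m 32.0 ± 2.01 RPM in KEE cells and 49.7 ± 6.64 RPM in Armi WT cells. Brf, a subunit of the polymerase III factor TFIIIB, averaged 30.3 ± 4.21 RPM in KEE cells and 13.7 ± 0.881 RPM in Armi WT cells. Elp5 averaged 231 ± 14.5 RPM in KEE cells and 298 ± 40.6 RPM in Armi WT cells and was called lower. The calls of LysRS, ArgRS, AspRS-m, SerRS-m, Brf and Elp5 with KEE held in all 24 alternative settings.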

How the data were processed

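Small RNAs that co-purified with Piwi were sequenced in 12 libraries, 3 in each of 4 groups. The deposited gene table gives RPM for 17469 genes, made by the authors. The submitters' processing notes list STAR and HTSeq as tools and BDGP6 and dm6 as builds, without versions. The handling of strand and of reads that match several loci is not given in the sources used here. Every deposited RPM value gave a whole number of reads within 0.01 (100% of values), so reads were recovered and used for counting tests as alternatives; edgeR with deposited totals called 1294 genes higher and 1277 lower with deltaSAM, and 3061 higher and 1167 lower with KEE. Symbols were matched by FlyBase identifier for 17340 genes, and positions come from RefSeq Release 6 plus ISO1 MT. The tRNA genes are the rows whose symbol begins with tRNA: and that have at least 1 RPM in 3 libraries. Levels were tested with limma 3.58.1 in R 4.3.3, with a trend, on log2(RPM + 1), over 8246 genes with the same minimum, with 4 group means fitted to 12 libraries and Benjamini-Hochberg adjustment at 0.05. A log2 difference is on the log2(RPM + 1) scale and understates changes of low genes. The design allows no exact permutation p below 0.1 for 3 libraries against 3, so sums are given with mean, SD and overlap only. Named tRNA genes are the 10 with the highest mean RPM, those past the threshold without overlap (up to 10 each way in each mutant comparison, up to 5 each way in the others), and the 3 genes just inside and just outside the limit. Genes of the pathway lists are named up to 4 each way in each list. The tRNA genes, lists and tests were chosen with earlier results of these data known. Alternatives used edgeR 4.0.16, DESeq2 1.42.0, other pseudocounts (0.1 and 10), other filters and scalings, a replicate block, summed anticodons, and fits without each library. The fit was tested on simulated reads, with changes planted only in genes averaging at least 5 RPM. Only 9 of the tRNA genes reach that level, so the simulation does not bear on most of them. Counts cover sampling of reads only. The table of transposons was not used.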

Additional observations from a re-analysis of the deposited data

Results flagged for a closer look

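The effects of the mutants, tested as the KEE effect minus the deltaSAM effect, differed by limma for 8 tRNA genes at an adjusted p under 0.05. Either way, 40.4% of all genes tested were called in this comparison. Of the tRNA genes, 11.9% were called lower and 1.7% higher, beside 11.0% and 29.4% of all genes. The share called lower was thus near that of all genes, and the share called higher was below it. On the log2(RPM + 1) scale the difference was -1.95 for tRNA:Ser-CGA-1-1, -1.60 for tRNA:Ser-GCT-2-3, -1.53 for tRNA:Gln-CTG-2-2, -1.50 for tRNA:Tyr-GTA-1-4, -1.40 for tRNA:Tyr-GTA-1-5, -1.36 for tRNA:Ser-CGA-1-3 and -1.08 for tRNA:Gly-GCC-1-10. It was 1.43 for tRNA:Gln-CTG-3-1. The calls of tRNA:Ser-CGA-1-1, tRNA:Ser-CGA-1-3, tRNA:Tyr-GTA-1-4 and tRNA:Gln-CTG-2-2 held in every alternative setting that tested them, while those of tRNA:Tyr-GTA-1-5 and tRNA:Gln-CTG-3-1 were lost in 12 of 21 and 13 of 22, that of tRNA:Gly-GCC-1-10 in 9 of 22 and that of tRNA:Ser-GCT-2-3 in 2 of 22. tRNA:Tyr-GTA-1-5 had 0 reads in the KEE libraries and 11 reads in all 12 libraries, so its fitted value depends on the pseudocount. It met the 1 RPM limit through deltaSAM and Armi WT libraries alone, the groups subtracted here, so the filter favoured a negative difference and its value is a description. Groups of 3 libraries were not searched for single libraries that stand apart.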

How the results depend on the processing

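No result changed its direction under an alternative while staying called. With deltaSAM, 17 tRNA genes were called, against 3 of the 4 left by a minimum of 10 RPM, 9 in a fit of 6 libraries, 10 with DESeq2, and 11 to 16 with a library left out. All genes called higher and lower were 17.3% and 18.9% in the main fit. In the first 3 alternatives they were 31.3% and 25.2%, 13.9% and 13.6%, and 15.8% and 10.3%. With KEE, 6 tRNA genes were called, against 2 at the 10 RPM minimum, 3 with libraries scaled to the gene-table total, and 2 to 7 with a library left out. All genes called higher and lower were 33.0% and 11.7%, 53.4% and 19.0%, and 21.0% and 17.1% in the first 3 of these settings. For the difference of effects 8 tRNA genes were called, against 5 with a pseudocount of 0.1, 2 at the 10 RPM minimum, 13 with centred libraries, 5 with anticodons summed, and 5 to 9 with a library left out. All genes called higher and lower were 29.4% and 11.0% in the main fit. In the first 3 alternatives they were 27.5% and 10.7%, 47.0% and 20.2%, and 12.9% and 20.3%. Between Armi WT and Daed WT 2 were called, against 1 with a pseudocount of 0.1 or 10 or with centred libraries, 4 with the gene-table total, 0 with no filter, at 10 RPM, with edgeR on deposited totals and with DESeq2, and 0 to 3 with a library left out. In that comparison 18.9% of all genes were called higher and 6.35% lower in the main fit, and 10.5% and 18.5% with the gene-table total. With no filter they were 10.8% and 3.5%, and at 10 RPM 36.5% and 11.1%. By unadjusted p, 6 tRNA genes were under 0.05 there, beside 34.4% of all genes. The log2 ratio of the KEE to the Armi WT sum was -0.01, and -0.34 as a share of the gene table, with -0.08 to 0.12 when a library was left out. For deltaSAM over Daed WT it was 0.53, with 0.42 to 0.63 when a library was left out. The pathway lists held 23, 16, 14, 11 and 21 tested genes. Of these genes, 27 were called for the difference of effects, beside 40.4% of all genes in the main fit. With centred libraries 17 were called, beside 12.9% of all genes higher and 20.3% lower. Between Armi WT and Daed WT 11 were called, beside 25.3% of all genes in the main fit. With the gene-table total 19 were called, beside 10.5% of all genes higher and 18.5% lower. In the main fit, the share of pathway genes called was below that of all genes in these comparisons. Library deviations with the same replicate number correlated between -0.01 and 0.06, and those with different numbers between -0.06 and 0.04. With 3 libraries a group and many genes of few reads, this check cannot exclude a pairing, and the labels do not state one. With the replicate block, all genes called higher and lower were 17.3% and 19.1%, 33.0% and 11.6%, 29.1% and 11.1%, and 19.0% and 6.4% in the 4 comparisons. In the same order, 17, 6, 8 and 2 tRNA genes were called. These included 16 of the 17 called with deltaSAM without the block (tRNA:Arg-TCG-1-1 was lost), all 6 and all 8 of the next comparisons, and 0 of the 2 between Armi WT and Daed WT. The cause of these shifts was not tested. Depth limits the reading of single genes, since most averaged under 2 RPM, or a few reads per library.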
